A study of Mus musculus with 5 samples.

Results

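The 164 genes described here carry names of proteins of the cytosolic ribosome and of the mitochondrial ribosome. They were taken from a table of 11564 genes by name alone, and 5 of the cytosolic ones are annotated as pseudogenes. The 88 cytosolic genes are those named Rpl, Rps followed by a digit, Rplp0 to Rplp2 or Rpsa, without the rows whose name carries -ps and without the S6 kinases. The 76 mitochondrial genes are those named Mrpl or Mrps followed by a digit. By name, 51 cytosolic genes were assigned to the large and 37 to the small subunit. Likewise, 47 mitochondrial genes were assigned to the large and 29 to the small subunit. RNA was sequenced from sorted CD8 T cells of mice, lymphocytes able to kill infected or malignant cells, in 3 libraries labelled PHD2-deltaT, described as a knockout of PHD2, and 2 libraries labelled WT. No treatment, time or age, and no promoter or Cre line behind the deletion, is given in the sources used here. The labels do not say whether each library came from a separate animal, so the p-values below measure only the spread between these libraries, which may be technical.

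Cytosolic ribosomes translate the messages of nuclear genes, and their proteins are made in the cytoplasm and assembled with ribosomal RNA in the nucleolus. Most of their messages start with a run of pyrimidines at the cap, the terminal oligopyrimidine (TOP) motif, through which mTORC1 and the RNA-binding protein LARP1 set how strongly they are translated. Mitochondrial ribosomes translate only the few messages of the mitochondrial genome, yet their proteins are encoded in the nucleus and imported. Resting T cells hold few ribosomes, and activation by antigen raises the output of both kinds. PHD2, the product of Egln1, hydroxylates HIF transcription factors and so marks them for degradation, and HIF is known to lower mitochondrial respiration and to oppose mTORC1 through REDD1 in several cell types.

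The start-site sequences below are shown for their pyrimidine runs, since TOP messages begin with such a run. Long runs near the annotated start were more frequent in cytosolic than in mitochondrial genes. A run near the annotated start need not begin at the cap. They run from 40 bases before the annotated transcript start through the first 20 bases after it, 5′ to 3′ on the strand of the gene, from RefSeq on build GRCm38.p6. Capitals mark the longest unbroken run of C and T that reaches within 20 bases of the start. The first 5 are cytosolic genes chosen for a long run, the next is a copy of Rps27, and the last 4 are mitochondrial genes among those with the smallest p-values of their subunit.

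Rps27 (chr3:90213629-90213688, minus strand): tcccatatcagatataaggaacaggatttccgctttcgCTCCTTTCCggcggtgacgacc
Rpl28 (chr7:4792925-4792984, plus strand): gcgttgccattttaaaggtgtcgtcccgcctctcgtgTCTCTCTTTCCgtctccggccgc
Rpl4 (chr9:64173347-64173406, plus strand): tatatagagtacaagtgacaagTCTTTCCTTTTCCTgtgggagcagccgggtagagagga
Rpl35a (chr16:33056442-33056501, plus strand): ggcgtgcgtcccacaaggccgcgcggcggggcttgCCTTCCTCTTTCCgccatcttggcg
Rps10 (chr17:27635225-27635284, minus strand): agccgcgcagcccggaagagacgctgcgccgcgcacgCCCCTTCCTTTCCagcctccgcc
Rps27rt (chr9:114982720-114982779, minus strand): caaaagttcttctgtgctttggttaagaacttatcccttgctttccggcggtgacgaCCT
Mrpl14 (chr17:45686309-45686368, plus strand): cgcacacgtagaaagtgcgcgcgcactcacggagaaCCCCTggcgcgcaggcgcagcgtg
Mrps25 (chr6:92184004-92184063, minus strand): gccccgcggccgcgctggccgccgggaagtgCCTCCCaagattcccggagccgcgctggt
Mrpl52 (chr14:54426869-54426928, plus strand): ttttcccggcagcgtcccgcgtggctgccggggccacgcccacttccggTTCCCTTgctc
Mrps26 (chr2:130563717-130563776, plus strand): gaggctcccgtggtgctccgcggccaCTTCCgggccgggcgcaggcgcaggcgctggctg

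In Rps27, Rpl28, Rpl35a and Rps10 the run crosses the annotated start, and in Rpl4 it ends shortly before it. RefSeq lists several starts for Rpl35a, and only the printed one carries the long run. In Rps27rt, a retrogene of Rps27, the letters ctttccggcggtgacga of the parent recur, but the long run is broken, and its capitals stop at the end of the printed bases although the run goes on past them. The 4 mitochondrial starts have only short runs.

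Windows of 250 bases before to 50 bases after the start were found for 64 cytosolic genes (75 windows) and for 67 mitochondrial genes (73 windows), among 32851 windows of all genes. A pyrimidine run of at least 8 bases within 20 bases of the start was present in 46.7% of cytosolic windows, 21.9% of mitochondrial windows and 21.0% of all windows. Runs of at least 10 bases were present in 34.7% of cytosolic, 12.3% of mitochondrial and 10.6% of all windows. Cytosolic windows thus held such runs more often than the promoters of all genes, while the mitochondrial share lay close to that of all genes. The letters CTTTCC on the strand of the gene within 20 bases of the start were found in 12 cytosolic windows (16.0%), in 1 mitochondrial window (1.37%) and in 640 of all windows (1.95%).

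Other motifs were searched over the whole window on both strands. CCGGAAGT, the letters bound by ETS factors such as GABP, was in 16.0% of cytosolic and 16.4% of mitochondrial windows, against 3.89% of all windows. The E-box CACGTG, read by Myc with Max, was in 10.7% of cytosolic and 9.59% of mitochondrial windows, against 7.15% of all windows. ACGTG, which is contained in CACGTG, was the only form of the hypoxia response element core that was searched. It was in 32.0% of cytosolic and 26.0% of mitochondrial windows, against 19.6% of all windows. CTTTCC over the whole window was in 50.7% of cytosolic, 34.2% of mitochondrial and 26.6% of all windows. The TATA box letters TATAAA were in 9.33% of cytosolic, 6.85% of mitochondrial and 13.6% of all windows. These matches are descriptions of letters and not of bound sites.

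The deposited values are normalized read counts, and 10818543 to 15382060 reads per library over the genes of the table were inferred from them. Egln1 went against the label: the libraries labelled PHD2-deltaT held 5447, 4327 and 4993 normalized counts, against 1927 and 2182 in the WT libraries (log2 fold change 1.26, limma-trend adjusted p = 2.86e-07). A gene-level value covers all exons and does not measure a deleted exon, so it checks nothing on the deletion, and "labelled PHD2-deltaT" is used throughout. All 6 glycolysis and hypoxia response genes examined (Slc2a1, Pfkl, Tpi1, Eno1, Slc16a3 and Egln3) rose in the libraries labelled PHD2-deltaT. Their log2 fold changes were 1.22 to 3.35, and all passed at a limma-trend adjusted p under 0.05, against 2.97% of all genes that rose. These genes were picked as a check with earlier results of these data known. The 7 CD8 and CD3 marker genes summed to between 63403 and 65116 in the libraries labelled PHD2-deltaT and to 68733 and 63584 in WT. Of these, 1 passed the test: Cd247 rose (log2 fold change 0.29, limma-trend adjusted p = 0.0336). Of 8 B cell markers 3 were in the table, summing to between 5180 and 5950 in the libraries labelled PHD2-deltaT and to 6192 and 5711 in WT, a sum carried by Ighm (log2 fold change -0.10). The other 2 B cell markers in the table were higher in every library labelled PHD2-deltaT than in either WT library (against 16.0% of all genes). They did not pass the test: Cd79b had a log2 fold change of 0.34 (limma-trend adjusted p = 0.291) and Ighd one of 0.21. Of 4 CD4 T cell markers 3 were in the table, summing to 109, 93.2 and 92.9 in the libraries labelled PHD2-deltaT and to 65.4 and 66.4 in WT, and none passed the test. Among these 3, Zbtb7b and Foxp3 were higher in every library labelled PHD2-deltaT than in either WT library (66.7%, against 16.0% of all genes). Of 10 myeloid markers 3 were in the table, summing to 192, 199 and 184 in the libraries labelled PHD2-deltaT and to 174 and 149 in WT. Itgax, an integrin that activated CD8 T cells express too, rose among them (log2 fold change 1.06, limma-trend adjusted p = 0.00752). The sums of the CD4 T cell and myeloid lists were higher in every library labelled PHD2-deltaT. The other myeloid markers did not pass the test, and their groups overlapped. Cd68 went the other way, with a log2 fold change of -0.34 (limma-trend adjusted p = 0.509), and Fcgr3 had one of 0.13. None of the 7 erythroid and platelet markers was in the table. Natural killer markers, 4 of 5 in the table and mostly Eomes, which activated CD8 T cells express too, summed to between 5105 and 5828 in the libraries labelled PHD2-deltaT and to 3886 and 3608 in WT. All 4 were higher in every library labelled PHD2-deltaT than in either WT library (against 16.0% of all genes). Eomes (log2 fold change 0.51, limma-trend adjusted p = 0.000858) and Klrk1 (0.48, adjusted p = 0.0403) passed the test. The part of these marker differences in the results was not tested.

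Across all genes, limma-trend called 461 of 11534 tested at an adjusted p under 0.05 (4.0%). Of these, 343 rose (2.97%) and 118 fell (1.02%) relative to WT. None of the 88 cytosolic genes and none of the 76 mitochondrial genes was among them. At an unadjusted p under 0.05, 2 cytosolic genes (2.27%) and 4 mitochondrial genes (5.26%) passed, against 15.0% of all genes, and limma without the trend or with robust variances also called 0 of either kind. In the authors' deposited table no member had an FDR under 0.05, against 3.95% of all genes with an FDR. The smallest FDR in the authors' deposited table was 0.238 for Rps27l among cytosolic and 0.102 for Mrpl54 among mitochondrial genes.

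The intervals of the differences were narrow for most members, and most members had high levels. The median value was 15470 normalized counts for cytosolic and 1436 for mitochondrial genes, against 643 for all genes. The part of level in the width of these intervals was not tested. The 95% interval of the difference lay within 1.2-fold in either direction for 58 of 88 cytosolic genes (65.9%) and for 53 of 76 mitochondrial genes (69.7%), against 32.0% of all genes. Within 1.5-fold lay 82 cytosolic genes and all 76 mitochondrial genes, against 75.1% of all genes. Of the 6 cytosolic genes with wider intervals, 4 are annotated as pseudogenes.

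**Figure D1:**
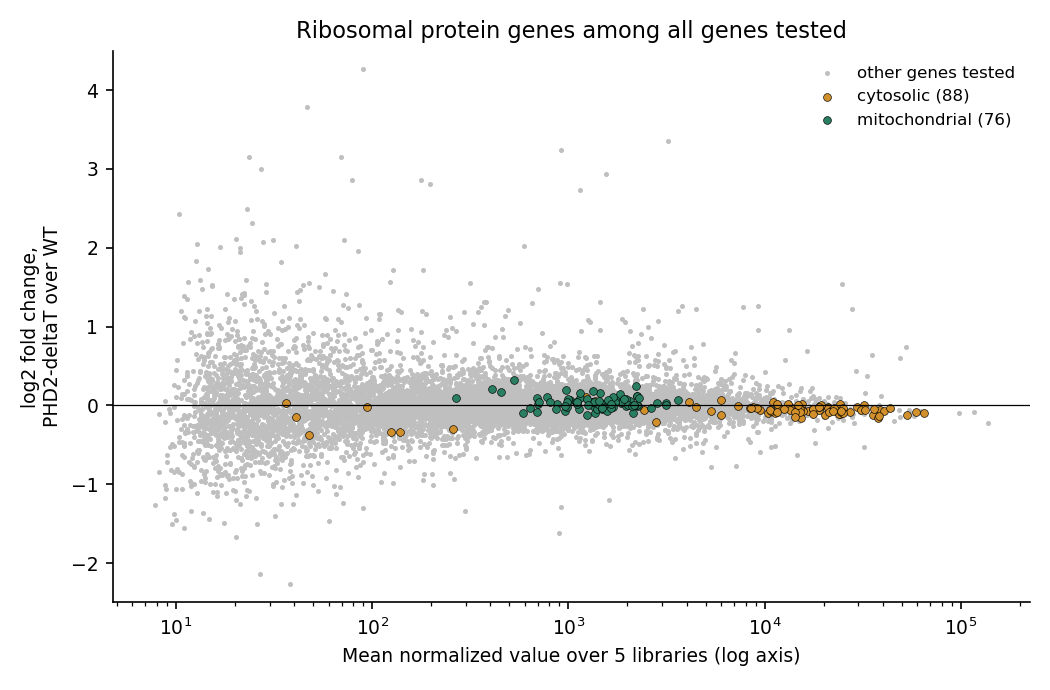
Log2 fold change (libraries labelled PHD2-deltaT over WT) against the mean normalized value over 5 libraries (log axis) for the 11534 genes tested, with the 88 cytosolic genes in ochre and the 76 mitochondrial genes in green. The members lie close to 0, the cytosolic genes between -0.38 and 0.10 and the mitochondrial genes between -0.13 and 0.32, while other genes reach 4.27.

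The cytosolic genes moved together from library to library. Summed, they took 7.26%, 8.01% and 8.08% of the table in the libraries labelled PHD2-deltaT, against 8.55% and 7.69% in WT. The mean share was 7.78% ± 0.456 (SD, n = 3) in the libraries labelled PHD2-deltaT and 8.12% ± 0.606 (SD, n = 2) in WT. The groups overlapped: PHD2-deltaT replicate 1 was the lowest library and WT replicate 1 the highest, with the other 3 between them. In bulk RNA, fewer cells with many ribosomes and less ribosomal protein message per cell cannot be told apart.

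The pattern across libraries was shared by nearly every cytosolic gene. In 78 of 88 cytosolic genes (88.6%) PHD2-deltaT replicate 1 held the lowest value, against 18.4% of all genes. In 72 of them (81.8%) WT replicate 1 held the highest value, against 18.4% of all genes. The median cytosolic gene deviated from its own mean by -0.15, 0.04 and 0.04 on the log2 scale in the libraries labelled PHD2-deltaT and by 0.12 and -0.06 in WT. The median log2 fold change of the 88 genes was -0.06, beside -0.01 for all genes, and 75 of the 88 (85.2%) lay below 0, against 51.8% of all genes. This direction rested on single libraries: the median was 0.01 without PHD2-deltaT replicate 1, with 41 genes below 0, and 0.04 without WT replicate 1, with 29 genes below 0. It was -0.15 without WT replicate 2, -0.09 without PHD2-deltaT replicate 2 and -0.08 without PHD2-deltaT replicate 3.

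The inferred reads ran opposite to the cytosolic share at both ends. Over the genes of the table they were 15382060, 14838917 and 12925633 in the libraries labelled PHD2-deltaT and 10818543 and 14710008 in WT. The library with the lowest share had the most inferred reads, and the library with the highest share had the fewest. The part of these read numbers in the cytosolic share was not tested.

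**Figure D2:**
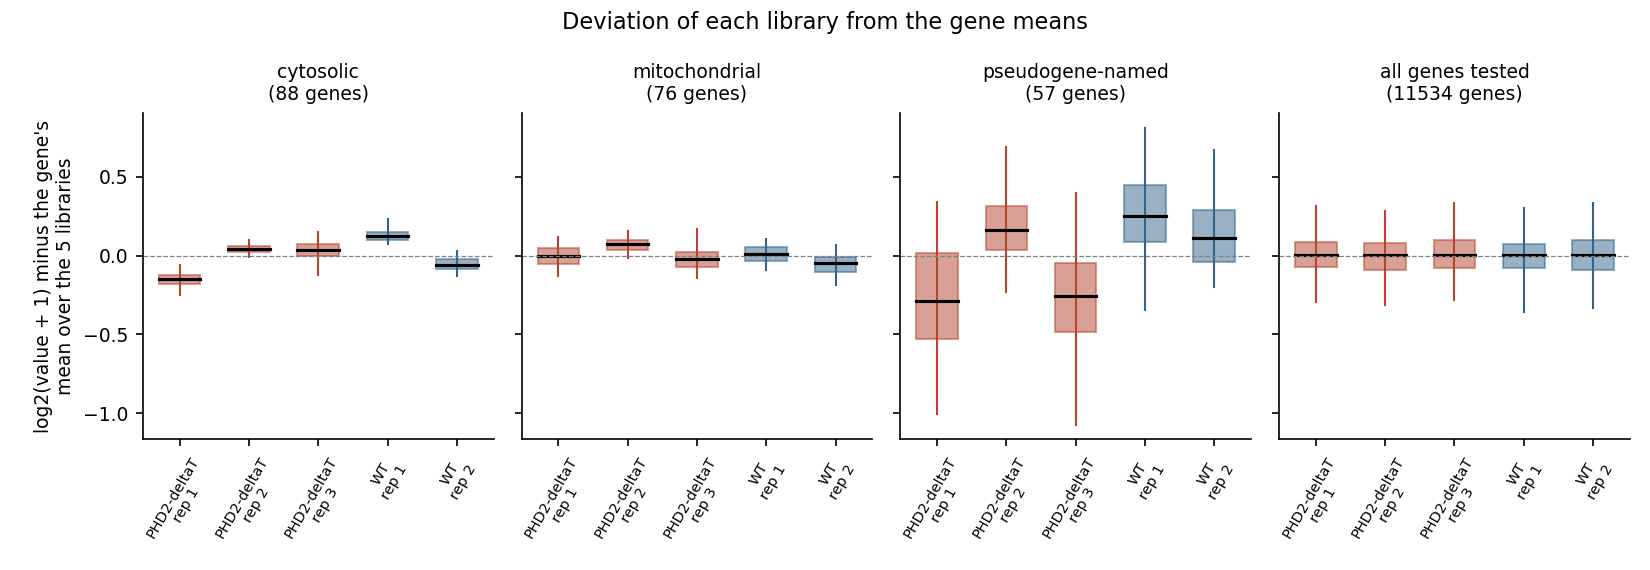
Deviation of each library from the mean of the gene on the log2(value + 1) scale, for the 88 cytosolic genes, the 76 mitochondrial genes, 57 rows with pseudogene names and all 11534 genes tested. Lines in the boxes are medians, boxes span the middle 50% of genes and whiskers run from the 5th to the 95th percentile. The cytosolic boxes are short and stand apart by library, lowest in PHD2-deltaT replicate 1 (median -0.15) and highest in WT replicate 1 (median 0.12).

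Mitochondrial ribosomal protein genes did not follow the cytosolic pattern. Summed, they took 0.581%, 0.591% and 0.566% of the table in the libraries labelled PHD2-deltaT, against 0.571% and 0.557% in WT. The mean share was 0.579% ± 0.0128 (SD, n = 3) in the libraries labelled PHD2-deltaT and 0.564% ± 0.0101 (SD, n = 2) in WT, and the groups overlapped. PHD2-deltaT replicate 1 held the lowest value in 13 of 76 genes (17.1%) and WT replicate 1 the highest in 12 (15.8%), close to the 18.4% of all genes for each. The median log2 fold change was 0.03, beside -0.01 for all genes, and 50 of 76 genes (65.8%) lay above 0, against 48.2% of all genes. Leaving out a library moved this median to between 0.00 (without WT replicate 2) and 0.07 (without WT replicate 1).

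The ratio of summed cytosolic to summed mitochondrial values was 12.5, 13.5 and 14.3 in the libraries labelled PHD2-deltaT, against 15.0 and 13.8 in WT. The ratio of the groups averaged 13.4 ± 0.903 (SD, n = 3) in the libraries labelled PHD2-deltaT and 14.4 ± 0.816 (SD, n = 2) in WT, and a PHD2-deltaT library lay between the WT libraries. The large over small subunit sum of cytosolic genes was 1.313, 1.294 and 1.307 in the libraries labelled PHD2-deltaT, against 1.286 and 1.290 in WT. These groups did not overlap, and no test was run on the ratio. For mitochondrial genes the same ratio was 2.112, 2.093 and 2.127 in the libraries labelled PHD2-deltaT, against 2.115 and 2.118 in WT, and the groups overlapped.

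**Figure D3:**
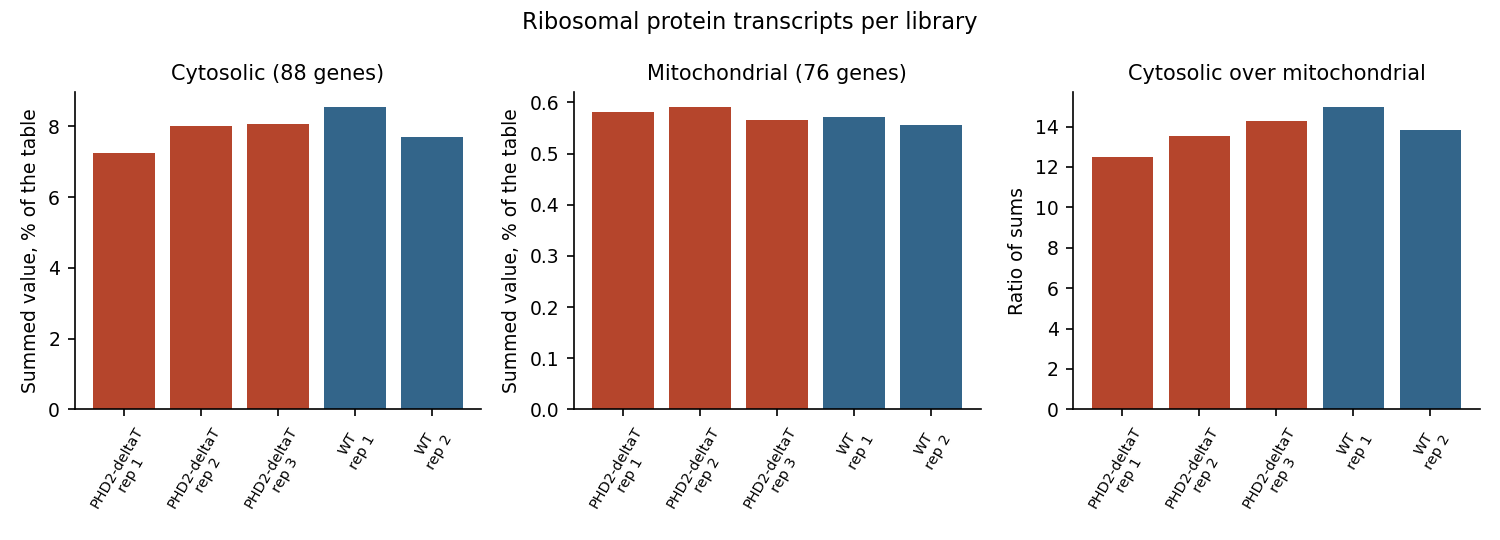
Summed normalized value of the 88 cytosolic and the 76 mitochondrial genes as a percentage of the table, and the ratio of the sums, in each library (bars start at 0). The cytosolic share runs from 7.26% to 8.55% and the mitochondrial share from 0.557% to 0.591%, and in each panel the libraries labelled PHD2-deltaT (red) overlap the WT libraries (blue).

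Large-subunit cytosolic genes had a median log2 fold change of -0.05. Rplp0, the scaffold protein of the P-stalk that recruits elongation factors, had 56915, 66708 and 65750 normalized counts in the libraries labelled PHD2-deltaT, against 71582 and 63299 in WT (log2 fold change -0.10, limma-trend adjusted p = 0.742). Rplp1, its acidic partner in the stalk, had 22983, 28147 and 28385 normalized counts in the libraries labelled PHD2-deltaT, against 30773 and 25476 in WT (log2 fold change -0.09, adjusted p = 0.793). Both show the shared pattern, with overlapping groups. Rpl7 had 32985, 36283 and 34309 normalized counts in the libraries labelled PHD2-deltaT, against 38627 and 36408 in WT. Its groups did not overlap, but by a margin far below the spread within either group (log2 fold change -0.12, adjusted p = 0.557). Rpl10, which helps to form the peptidyl-transferase site, had 18722, 20515 and 19571 normalized counts in the libraries labelled PHD2-deltaT, against 22608 and 20035 in WT (log2 fold change -0.12, adjusted p = 0.554). Rpl5 and Rpl11, which join the 5S ribosomal RNA and can also bind MDM2, had log2 fold changes of -0.02 and -0.03, named here after their values were seen.

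Small-subunit cytosolic genes had a median log2 fold change of -0.08. Rps2, near the entry channel for messenger RNA, had 32794, 39222 and 36294 normalized counts in the libraries labelled PHD2-deltaT, against 42912 and 37557 in WT (log2 fold change -0.16, limma-trend adjusted p = 0.478). Rps15 had 21884, 26381 and 26556 normalized counts in the libraries labelled PHD2-deltaT, against 27294 and 23808 in WT, with a log2 fold change of -0.04. In both genes PHD2-deltaT replicate 1 was lowest, WT replicate 1 was highest and the groups overlapped. Rps6, the classical substrate of S6 kinase, had a log2 fold change of 0.00 and was named after its values were seen.

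Groups that did not overlap were rarer among cytosolic genes than among all genes. There were 6 such cytosolic genes (6.82%) against 30.5% of all genes, 5 of them lower (5.68%, against 14.5%) and 1 higher (1.14%, against 16.0%). The lower genes included Rps27l, Rpl7 and the pseudogene-annotated rows Rpl6l and Rps3a2, and the higher gene was Rpl7l1. Rps27l had the smallest p of the cytosolic genes. It is a p53-inducible paralog of Rps27, and it had 2520, 2886 and 2511 normalized counts in the libraries labelled PHD2-deltaT, against 3104 and 2985 in WT. The difference was -0.21 on the log2 scale (95% interval -0.38 to -0.04) and did not pass the test over all genes (limma-trend adjusted p = 0.180). Without PHD2-deltaT replicate 2 it did, at -0.28 and an adjusted p of 0.047, and over all 13 alternatives its adjusted p ran from 0.047 to 0.507.

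Mitochondrial large-subunit genes had a median log2 fold change of 0.02. Mrpl54 had 2261, 2354 and 2473 normalized counts in the libraries labelled PHD2-deltaT, against 2092 and 1904 in WT, and every library labelled PHD2-deltaT lay above both WT libraries. The difference of 0.24 on the log2 scale (95% interval 0.08 to 0.40) had the smallest p of all members and did not pass the test over all genes (limma-trend adjusted p = 0.0961). Mrpl14 had 549, 535 and 633 normalized counts in the libraries labelled PHD2-deltaT, against 487 and 431 in WT, the largest increase among the members at 0.32 (95% interval 0.09 to 0.54, adjusted p = 0.129). Its groups were apart as well. Mrpl52 had 2241, 2287 and 2407 normalized counts in the libraries labelled PHD2-deltaT, against 2226 and 2019 in WT (log2 fold change 0.12, adjusted p = 0.495). Mrpl28 had 1795, 1968 and 1914 normalized counts in the libraries labelled PHD2-deltaT, against 1809 and 1629 in WT, with overlapping groups (log2 fold change 0.14, adjusted p = 0.448). Mrpl12, which also binds the mitochondrial RNA polymerase, had a log2 fold change of 0.12 (adjusted p = 0.624) and was named after its values were seen. The lowest fold change was that of Mrpl18, at -0.13.

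Mitochondrial small-subunit genes had a median log2 fold change of 0.04. Mrps28 had 1319, 1496 and 1396 normalized counts in the libraries labelled PHD2-deltaT, against 1299 and 1182 in WT (log2 fold change 0.18, limma-trend adjusted p = 0.330). Mrps25 had 1069, 1017 and 984 normalized counts in the libraries labelled PHD2-deltaT, against 950 and 836 in WT (log2 fold change 0.20, adjusted p = 0.288). In both, the groups were apart, but 69.8% of the exon bases of Mrps25 are shared with another gene, and its value is uncertain for that reason. Mrps26 had 1437, 1541 and 1552 normalized counts in the libraries labelled PHD2-deltaT, against 1361 and 1343 in WT (log2 fold change 0.16, adjusted p = 0.347). Mrps33 had 505, 491 and 431 normalized counts in the libraries labelled PHD2-deltaT, against 426 and 415 in WT (log2 fold change 0.18, adjusted p = 0.493). Mrps21 had 1139, 1102 and 1094 normalized counts in the libraries labelled PHD2-deltaT, against 1095 and 1062 in WT, with a log2 fold change of 0.04. Mrps36, which is now known as a component of the oxoglutarate dehydrogenase complex, had a log2 fold change of -0.10 and was named after its values were seen.

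Over the 76 mitochondrial genes the groups did not overlap in 14 (18.4%, against 30.5% of all genes), 13 of them higher (17.1%, against 16.0%) and 1 lower (1.32%, against 14.5%). The lower gene was Mrps15. All 4 mitochondrial genes under an unadjusted p of 0.05 (Mrpl54, Mrpl14, Mrps25 and Mrps28) were higher (5.26%, against 8.53% of all genes), and both cytosolic ones (Rps27l and Rpl37rt) were lower (2.27%, against 6.48%). All of these shares are near or under those of all genes.

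**Figure D4:**
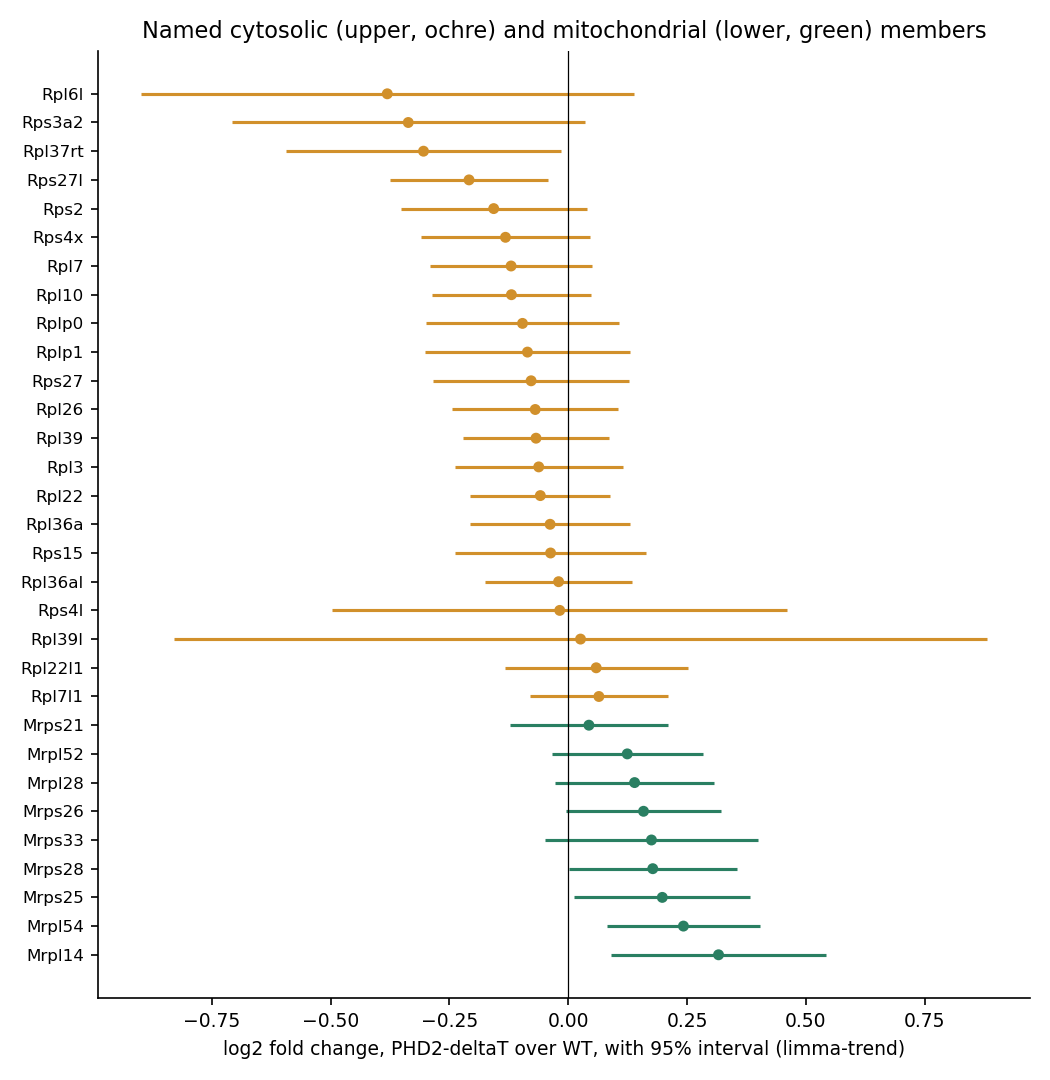
Log2 fold change (libraries labelled PHD2-deltaT over WT) with its 95% interval from limma-trend for the named cytosolic genes (ochre, upper) and mitochondrial genes (green, lower). Most intervals cross 0, those of Rps27l (-0.38 to -0.04) and Rpl37rt lie below it and those of Mrpl54 (0.08 to 0.40), Mrpl14, Mrps25 and Mrps28 lie above it, and no gene passed the adjusted test.

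Several cytosolic genes have a paralog, and the paralog's share of the summed counts of the pair was followed in each library. Such a share is of messages and does not measure which protein is in the ribosome. Rpl22l1, the paralog of the T cell regulator Rpl22, made up 11.3%, 12.7% and 11.1% of the summed counts of the pair in the libraries labelled PHD2-deltaT, against 9.92% and 11.9% in WT. Rps27l made up 19.9%, 19.9% and 17.1% of its pair with Rps27 in the libraries labelled PHD2-deltaT, against 18.8% and 21.9% in WT. Rpl36al made up 34.1%, 32.5% and 32.1% of its pair with Rpl36a in the libraries labelled PHD2-deltaT, against 32.7% and 32.6% in WT. In these 3 pairs the groups overlapped. Rpl7l1 made up 15.3%, 14.8% and 14.9% of its pair with Rpl7 in the libraries labelled PHD2-deltaT, against 13.3% and 13.6% in WT, the only pair of the 6 measured in which the groups did not overlap. Rpl7l1 itself had 5968, 6311 and 6022 normalized counts in the libraries labelled PHD2-deltaT, against 5933 and 5733 in WT (log2 fold change 0.06, limma-trend adjusted p = 0.760), and no test was run on the shares. Rpl39l and Rps4l were close to the lower end of detection, at 0.337% to 1.06% and 0.202% to 0.320% of their pairs with Rpl39 and Rps4x. Rpl3 and Rpl26 were measured without their paralogs, with log2 fold changes of -0.06 and -0.07.

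Among the 88 cytosolic genes, 5 are annotated as pseudogenes although their names lack the pseudogene mark: Rps3a2, Rps3a3, Rps4l, Rpl37rt and Rpl6l. All 5 had log2 fold changes below 0, with a median of -0.30, beside -0.06 for the 83 protein-coding genes. Rpl37rt had 217, 262 and 228 normalized counts in the libraries labelled PHD2-deltaT, against 322 and 262 in WT (log2 fold change -0.30, limma-trend adjusted p = 0.296). Rps3a2 had 99.0, 136 and 107 normalized counts in the libraries labelled PHD2-deltaT, against 147 and 139 in WT (log2 fold change -0.34, adjusted p = 0.398). Rpl6l had 44.1, 44.6 and 38.9 normalized counts in the libraries labelled PHD2-deltaT, against 50.3 and 61.4 in WT (log2 fold change -0.38, adjusted p = 0.535). Such copies differ little in sequence from their parent genes, so reads could be split between them and their counts are uncertain. Rps27rt, whose start is printed above, is annotated as protein coding and had 96.1, 152 and 129 normalized counts in the libraries labelled PHD2-deltaT, against 188 and 129 in WT.

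The 57 rows named as pseudogenes, which are not counted among the 164, showed the same sign on a larger scale. Their median value was 45.2 normalized counts, their median log2 fold change was -0.33 and 45 of them (78.9%) lay below 0, against 51.8% of all genes. The median row deviated from its mean by -0.29, 0.16 and -0.26 on the log2 scale in the libraries labelled PHD2-deltaT and by 0.25 and 0.11 in WT, so PHD2-deltaT replicate 2 lay with the WT libraries. Of the 57 rows, 2 fell (3.51%, against 1.02% of all genes). Rpl7a-ps5 had 27.5, 56.8 and 24.96 normalized counts in the libraries labelled PHD2-deltaT, against 107 and 85.2 in WT (log2 fold change -1.46, limma-trend adjusted p = 0.0110), with an FDR of 0.0032 in the authors' deposited table. Rpl31-ps8 had 91.2, 238 and 123 normalized counts in the libraries labelled PHD2-deltaT, against 309 and 257 in WT (log2 fold change -1.02, adjusted p = 0.0435), with an FDR of 0.532 in the authors' deposited table. These rows were named after their values were seen, and leaving out a library gave between 0 calls (without WT replicate 1) and 5 calls (without PHD2-deltaT replicate 2), with 1 call when any of the others was left out. Their parent genes and these rows may share reads, and the part of that in these values was not tested.

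Levels differed far more between genes than between groups. Per kb of merged exon, the median cytosolic gene had 8504 normalized counts and the median mitochondrial gene 540. Rplp1 (54415 per kb), Rps15 (39975 per kb) and Rplp0 (39090 per kb) had the highest levels of the cytosolic genes, and Rpl39l (43.8 per kb) the lowest. Among mitochondrial genes Mrpl54 (2687 per kb) and Mrpl52 (2016 per kb) were highest and Mrpl33 (97.2 per kb) was lowest. The highest mitochondrial gene was thus below the median cytosolic gene. Merged exon length counts rarely used exons too, so long annotations lower a level on this scale.

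**Figure D5:**
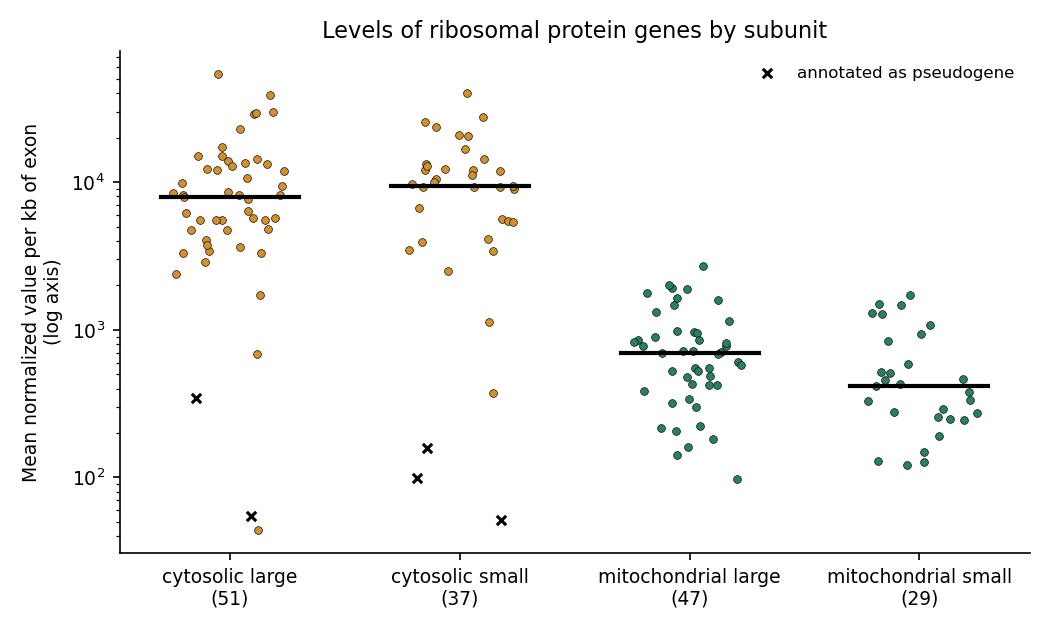
Mean normalized value over 5 libraries per kb of merged exon (log axis) for each gene by subunit, with the median as a bar and rows annotated as pseudogenes as crosses. Most cytosolic genes lie above the mitochondrial genes (medians of 8504 and 540 over the 88 and 76 genes), and the rows annotated as pseudogenes lie at the low end of the cytosolic genes.

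The members on chromosome 8, which carries Egln1, were examined for values apart from the rest. Rpl13 lies 1.80 Mb from Egln1 and had a log2 fold change of -0.02 (limma-trend adjusted p = 0.965). Mrpl34 and Mrps31, farther away on the same chromosome, had log2 fold changes of 0.09 and 0.04.

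Of 22 other genes with TOP messages that were tested, 1 passed the test (4.55%, against 4.0% of all genes). Vim, the intermediate filament vimentin, rose, with 2970, 2424 and 2285 normalized counts in the libraries labelled PHD2-deltaT, against 1207 and 1441 in WT (log2 fold change 0.95, limma-trend adjusted p = 2.72e-05). The median of the list was -0.05. Pabpc1, the poly(A)-binding protein, had 42860, 44706 and 42317 normalized counts in the libraries labelled PHD2-deltaT, against 51105 and 48095 in WT. Its groups did not overlap, and the difference did not pass the test (log2 fold change -0.20, adjusted p = 0.241).

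Of 73 ribosome biogenesis genes tested, 2 fell at the adjusted threshold (2.74%, against 1.02% of all genes) and none rose (against 2.97% of all genes), with a median log2 fold change of 0.01. Mdn1, the AAA ATPase that strips assembly factors from the large subunit, had 2980, 4840 and 4708 normalized counts in the libraries labelled PHD2-deltaT, against 6478 and 7655 in WT (log2 fold change -0.79, limma-trend adjusted p = 0.00457). Utp20, a component of the small-subunit processome, had 4032, 4737 and 4669 normalized counts in the libraries labelled PHD2-deltaT, against 5633 and 5530 in WT (log2 fold change -0.32, adjusted p = 0.0277). Every library labelled PHD2-deltaT lay below both WT libraries for both genes. The call on Mdn1 was lost without WT replicate 2, with robust variances and without the mean-variance trend (adjusted p from 0.000159 to 0.337 over 13 alternatives). That on Utp20 was lost without PHD2-deltaT replicate 1, without either WT replicate and without the trend (adjusted p from 0.0144 to 0.274). In the authors' deposited table the FDR was 0.114 for Mdn1 and 0.00801 for Utp20.

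Of 30 tested genes that control growth and the synthesis of ribosomal proteins, 3 rose (against 2.97% of all genes) and 1 fell (3.33%, against 1.02%). Ddit4, which encodes the mTORC1 inhibitor REDD1, had 2069, 1530 and 1777 normalized counts in the libraries labelled PHD2-deltaT, against 847 and 998 in WT (log2 fold change 0.95, limma-trend adjusted p = 4.52e-05). Eif4ebp1, whose product holds back cap-dependent translation when mTORC1 is low, had 1453, 1609 and 1643 normalized counts in the libraries labelled PHD2-deltaT, against 1101 and 937 in WT (log2 fold change 0.62, adjusted p = 0.000388). Sesn2 rose and Sesn3 fell, both encoding sestrins that inhibit mTORC1, with log2 fold changes of 0.55 and -0.47. The genes of the kinase itself and of its TOP effector did not pass: the log2 fold change was -0.10 for Mtor (adjusted p = 0.712) and 0.02 for Larp1 (adjusted p = 0.935). Myc, a transcriptional activator of ribosomal protein genes, had 15125, 16812 and 15659 normalized counts in the libraries labelled PHD2-deltaT, against 14160 and 13853 in WT. Its groups did not overlap and the difference did not pass (log2 fold change 0.18, adjusted p = 0.244).

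Of 56 other genes of mitochondrial translation tested, none passed at an adjusted p under 0.05 by limma-trend, without the trend or with robust variances, and by limma-trend 5 passed at an unadjusted p under 0.05 (8.93%, against 15.0% of all genes). Gadd45gip1, a mitochondrial ribosomal protein outside the naming rule, had 890, 1003 and 1110 normalized counts in the libraries labelled PHD2-deltaT, against 873 and 776 in WT (log2 fold change 0.28, adjusted p = 0.162). Lars2, the mitochondrial leucyl-tRNA synthetase, had 6645, 10093 and 8384 normalized counts in the libraries labelled PHD2-deltaT, against 10206 and 10696 in WT (log2 fold change -0.34, adjusted p = 0.149). It passed without PHD2-deltaT replicate 2, at -0.48, where its adjusted p was 0.00527, against a range of 0.00527 to 0.550 over all 13 alternatives.

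The mitochondrial genome supplies the ribosomal RNA and the messages of mitochondrial ribosomes. Of the 9 mitochondrially encoded genes measured, 7 fell at the adjusted threshold (77.8%, against 1.02% of all genes). In all 9 every library labelled PHD2-deltaT lay below both WT libraries (against 14.5% of all genes). They moved together by library: the median log2 deviation was -0.13, -0.05 and -0.42 in the libraries labelled PHD2-deltaT and 0.13 and 0.52 in WT. They are therefore not 9 separate observations. Of the 9 genes, 4 (44.4%) had an FDR under 0.05 in the authors' deposited table. With robust variances 3 of the 9 passed, and without the mean-variance trend none passed while 7 had an unadjusted p under 0.05. The ribosomal RNA mt-Rnr2 had 2939, 3497 and 3203 normalized counts in the libraries labelled PHD2-deltaT, against 4042 and 5494 in WT (log2 fold change -0.56, limma-trend adjusted p = 0.00492). The complex I message mt-Nd1 had 11965, 13813 and 10395 normalized counts in the libraries labelled PHD2-deltaT, against 16145 and 21099 in WT (log2 fold change -0.62, adjusted p = 0.00349). Without WT replicate 2, which held the highest value of each, none of the 9 passed the adjusted threshold, and 7 passed at an unadjusted p under 0.05. The difference between this list and the mitochondrial ribosomal protein genes was not tested.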

How the data were processed

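Sorted mouse CD8 T cells gave 5 sequenced libraries, 3 of the PHD2-deltaT and 2 of the WT label. The tools, per the submitters' processing notes, were HTSeq 0.9.1, STAR 2.5.3 and Trimmomatic 0.36 on build mm10. Not given in the sources used here are the scaling of the counts, whether strand was used in counting, and what tool made the deposited comparison. Each library has a column of normalized signal deposited by the authors (headed normalized counts), and the authors also deposited log2 fold changes of WT over PHD2-deltaT, and adjusted p-values headed FDR.

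In each library the deposited signal values were whole multiples of a single step (tolerance 1e-06), with gaps like those left by scaling reads up and rounding. From that, 10818543 to 15382060 reads per library were inferred over the genes of the table, which need not be the full sequencing depth. They are inferences from the values, and no count test was run. Pseudogene-like copies and overlapping genes may share reads: 38 cytosolic and 31 mitochondrial genes share exon bases with another gene in GENCODE M21, 11 and 9 of them over 20% of their bases.

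The filter kept genes reaching 10 in 2 or more libraries (11534 of 11564), and all 164 members passed. The fit of log2(value + 1) used limma 3.58.1 under R 4.3.3 with a mean-variance trend (limma-trend), genotype as the only term, 3 residual and 12.8 prior degrees of freedom, two-sided tests, Benjamini-Hochberg adjustment over all genes and a threshold of 0.05. A fold change on the log2(value + 1) scale understates that of low genes. The fit was tested on simulated data, drawn gene by gene without any change shared across a library. Such data do not test the fit on genes that move together, as the cytosolic genes did. Summaries and figures were made with Python 3.11.15. Lists are described by counts and medians beside those of all genes, with no test of a list. The members and lists were chosen with earlier results of these data known.

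The naming rule took, in each subunit group, the 4 genes with the smallest p and the 2 with the highest level per kb of exon. It also took the 2 largest changes of each ribosome, the paralog pairs, up to 2 genes of each related list by smallest p, and Myc, Mtor, Larp1 and Eif4ebp1. Genes outside it are marked as named after their values were seen, apart from those named in a count of 5 or fewer, as an extreme of a list, as a printed start or as a marker. Alternatives changed the pseudocount, the filter, the scaling (TMM or quantile), the variance model and the libraries, or left out members that share exon bases. Mrpl23-ps1, a pseudogene name, was left out (20.6, 26.3 and 37.9 in the libraries labelled PHD2-deltaT, 28.2 and 32.7 in WT; log2 fold change -0.14). Some genes that the rule took are not reported here. Replicate numbers follow the order of the labels within a genotype.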

Additional observations from a re-analysis of the deposited data

How the results depend on the processing

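Each result was recomputed under 13 alternatives. No paired analysis was possible because the labels carry no replicate numbers that the genotypes share. The 0 calls among mitochondrial genes held in all of them, with 0 to 0 calls when a library was left out. Cytosolic calls stayed at 0 except for 1 (Rps27l) without PHD2-deltaT replicate 2, a range of 0 to 1. The median cytosolic log2 fold change ran from -0.15 to 0.04 and the mitochondrial one from 0.00 to 0.07 when a library was left out. Calls over all genes ran from 244 (without WT replicate 2) to 523 with a library left out. The variance model changed calls outside the members: without the mean-variance trend, calls were 96 over all genes. They were then 0 for the other TOP genes, ribosome biogenesis, growth control, mitochondrially encoded genes and pseudogene-named rows. With robust variances, 1 biogenesis gene, 3 mitochondrially encoded genes and 1 pseudogene-named row passed. Quantile scaling gave 2 other TOP genes (Pabpc1 was added) and 1 pseudogene-named row, and a filter of 50 gave 1 such row. With a library left out, calls ran from 0 to 3 for biogenesis, 3 to 6 for growth control, 1 to 1 for other TOP genes, 0 to 1 for other mitochondrial translation, 0 to 9 for mitochondrially encoded genes and 0 to 5 for pseudogene-named rows, whose median ran from -0.47 to -0.25. The causes were not tested. Of 623 alternatives for 48 named genes, 595 kept their side of the threshold, 25 lost a call, 3 gained one and none reversed a called direction. Settings for the pseudogene-named rows were chosen after seeing the data. With 5 libraries, the 95% interval lay within 1.2-fold either way for 58 cytosolic and 53 mitochondrial genes.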
